A study of Homo sapiens with 88 samples.

Results

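The semaphorin, ephrin and SLIT axon guidance genes were taken by symbol: every gene starting with SEMA or PLXN, the EPHA and EPHB receptors, the EFNA and EFNB ephrins, the SLIT and ROBO genes, NRP1 and NRP2. The array held a probe set for 59 of them, and 53 were kept because the mean of at least 1 group of arrays lay above 7.41, the median of all log2 values. These 53 stood among 15352 genes tested. The kept genes were 17 of 20 semaphorins, 8 of 9 plexins, both neuropilins, 12 of 13 Eph receptors, all 8 ephrins, all 3 SLIT ligands and 3 of 4 ROBO receptors. The highest group means just outside the limit were 7.15 for ROBO4 and 6.78 for SEMA3B, and just inside 7.83 for SLIT3 and 7.84 for EPHA1. SEMA3G (6.64), PLXNB3 (6.45), EPHB6 (6.45) and SEMA3D (6.14) also stayed below it.

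RNA was measured on 88 expression arrays from 9 established small cell lung cancer (SCLC) lines, a tumour type with neuroendocrine features. All lines were grown in RPMI medium with serum. Arrays are labelled DMSO, the vehicle, or 552A, and the treatment protocol names DMSO or GSK2879552 at 1 µM; this compound inhibits LSD1, a histone demethylase. H69, H1417 and H2171 were sampled after 4 days, and COLO668, SHP-77, NCI-H146, NCI-H446, NCI-H510 and NCI-H526 after 2, 4 and 7 days. The 42 groups of line, treatment and day held 2 arrays each in 39 cases, 3 in 2 cases and 4 for SHP-77 under 552A at day 7. The study's design text divides lines into sensitive and resistant, but the labels do not say which line is which, so no comparison by sensitivity was made. No label states that arrays within a group stem from different cultures, and the p-values below measure the spread between these arrays, which may be technical.

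Axon guidance genes encode cues and receptors that steer growing axons and migrating cells, and many act in epithelia, vessels and tumours as well. Secreted and membrane-bound semaphorins signal through plexins, with neuropilins as co-receptors for most class 3 semaphorins. Ephrins and Eph receptor tyrosine kinases both sit in the membrane and signal in both directions between touching cells, whereas secreted SLIT proteins act through ROBO receptors, mostly as repellents. LSD1 removes methyl groups from histone H3 and is part of repressor complexes that include RCOR1 and GFI1.

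Promoter sequences are shown for EFNA1, EFNA2, EFNB2 and SEMA3C, the members called higher under 552A in 5 lines each. Each window runs from 250 bases before to 50 bases after a RefSeq start on build GRCh38.p14 and is printed 5′ to 3′ on the gene's own strand. The first start listed for each gene was used, and any other starts are not shown. Capitals mark every match of GGGCGG, the core of the GC box, or of CAGGTG, an E box, on either strand (CCGCCC and CACCTG in reverse). The EFNA1 window lies at chr1:155127626-155127925 on the plus strand, EFNA2 at chr19:1285623-1285922 on the plus strand, EFNB2 at chr13:106535613-106535912 on the minus strand and SEMA3C at chr7:80922340-80922639 on the minus strand.
EFNA1: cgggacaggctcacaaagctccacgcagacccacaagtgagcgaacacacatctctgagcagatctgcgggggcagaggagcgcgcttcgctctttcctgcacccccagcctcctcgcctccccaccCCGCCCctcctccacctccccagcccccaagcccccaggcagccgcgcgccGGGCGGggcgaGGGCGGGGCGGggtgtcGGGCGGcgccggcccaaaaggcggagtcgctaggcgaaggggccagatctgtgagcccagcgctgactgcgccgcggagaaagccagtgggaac
EFNA2: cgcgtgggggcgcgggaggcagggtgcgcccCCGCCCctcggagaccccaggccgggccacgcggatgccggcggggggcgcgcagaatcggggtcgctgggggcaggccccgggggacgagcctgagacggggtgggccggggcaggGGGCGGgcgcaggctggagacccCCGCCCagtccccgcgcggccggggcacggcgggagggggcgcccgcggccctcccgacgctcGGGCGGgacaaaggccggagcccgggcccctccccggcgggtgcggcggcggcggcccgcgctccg
EFNB2: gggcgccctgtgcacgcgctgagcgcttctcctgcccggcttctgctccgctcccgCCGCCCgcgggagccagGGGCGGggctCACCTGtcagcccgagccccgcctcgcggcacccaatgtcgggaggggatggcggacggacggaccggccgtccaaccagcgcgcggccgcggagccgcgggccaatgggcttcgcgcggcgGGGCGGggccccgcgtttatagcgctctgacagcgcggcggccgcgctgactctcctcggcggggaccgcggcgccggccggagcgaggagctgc
SEMA3C: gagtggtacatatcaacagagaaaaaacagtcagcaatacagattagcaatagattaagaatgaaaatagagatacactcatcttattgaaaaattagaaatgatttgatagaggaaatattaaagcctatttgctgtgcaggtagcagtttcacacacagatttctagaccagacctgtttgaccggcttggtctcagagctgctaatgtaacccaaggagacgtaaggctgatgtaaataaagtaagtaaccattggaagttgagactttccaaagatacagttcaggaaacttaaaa

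The 3 ephrin windows were rich in G and C, at 71.7% for EFNA1, 85.3% for EFNA2 and 78.7% for EFNB2, and held 28, 47 and 49 CpG dinucleotides. The SEMA3C window was 36% G and C with 2 CpG. Over all 35116 RefSeq promoter windows of this length the medians were 58.7% and 14 CpG. GGGCGG matched 5 times in EFNA1, 4 times in EFNA2 and 3 times in EFNB2, overlapping matches included, and CAGGTG once in EFNB2, where it reads CACCTG. Neither matched in SEMA3C. Windows were found for 47 of the 53 members; GGGCGG occurred in 80.9% of them against 45% of all windows, CAGGTG in 14.9% against 20.6%, AATCAC (a GFI1 core) in 4.26% against 10.2%, and TGACTCA (an AP-1 site) in 0 against 4.95%, each searched on both strands. Each member counted with the first window listed for it. The comparison took all windows of this length, not only those of tested genes, so the shares come from unlike sets. These are letter matches and no evidence of binding.

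The values are log2 signals, and array medians lay between 7.36 and 7.46. No pair of arrays within a group was identical. In 14 neuroendocrine and SCLC marker genes, 13 were above the median of all values in at least 1 line and 10 in all 9 lines under DMSO; INSM1 lay at 12.4 to 13.8 and NCAM1 at 10.7 to 12.8, while YAP1 was above the median in no line. Of 9 immune markers 2 were above the median in some line, with PTPRC at 4.59 to 5.37, as were 3 of 9 fibroblast and 5 of 7 endothelial markers, and 1, 1 and 3 of these were so in all lines. Of the arrays, 6 stood apart. In 5 of them, the 3′ probe set of ACTB exceeded the 5′ one by more than 0.8 (0.880 to 1.67; highest elsewhere 0.729): SHP-77 DMSO day 7 replicate 1, SHP-77 552A day 7 replicates 1 and 2, COLO668 DMSO day 7 replicate 1 and COLO668 552A day 7 replicate 2. The sixth, NCI-H446 DMSO day 4 replicate 2, had an interquartile range of 2.56 against a median of 3.05. Signals near 6.09, the median of the arrays' lower quartiles, are dim, and a change measured from there may be understated. In these whole cultures, fewer expressing cells and less RNA per cell cannot be told apart.

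Without the inhibitor, the lines differed widely in these genes. At day 4 under DMSO the level differed between the 9 lines in 52 of 53 members (98.1%; limma F test, adjusted p below 0.05), where all genes gave 96.7%; the exception was SEMA4A (adjusted p = 0.0727). Because a member was kept by its highest group, this count describes the kept genes and is not a result about the family. The widest spread belonged to EPHA3, an ephrin-A receptor, whose mean DMSO signal was 12.52 ± 0.24 (SD, n = 7) in NCI-H446, 9.93 ± 0.20 (n = 2) in H1417 and 7.27 ± 0.32 (n = 6) in SHP-77. EPHA3 was dim in the other lines, between 3.91 in NCI-H526 and 5.23 in NCI-H146.

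SEMA3C, a secreted class 3 semaphorin, ranged from 4.57 ± 0.14 (SD, n = 6) in NCI-H146 to 11.17 ± 0.19 (n = 2) in H69, a range of 6.59 log2 units. ROBO1, a SLIT receptor, lay between 11.11 in H2171 and 13.12 in NCI-H146 in 8 lines and at 6.61 ± 0.36 (n = 6) in NCI-H526. ROBO2, its neighbour on chromosome 3 with no protein-coding gene between, was lowest in the same line, at 4.86 ± 0.28 (n = 6), and highest in NCI-H446 at 9.98 ± 0.41 (n = 7). NCI-H526 was thus the line with the lowest DMSO mean of both genes.

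**Figure D1:**
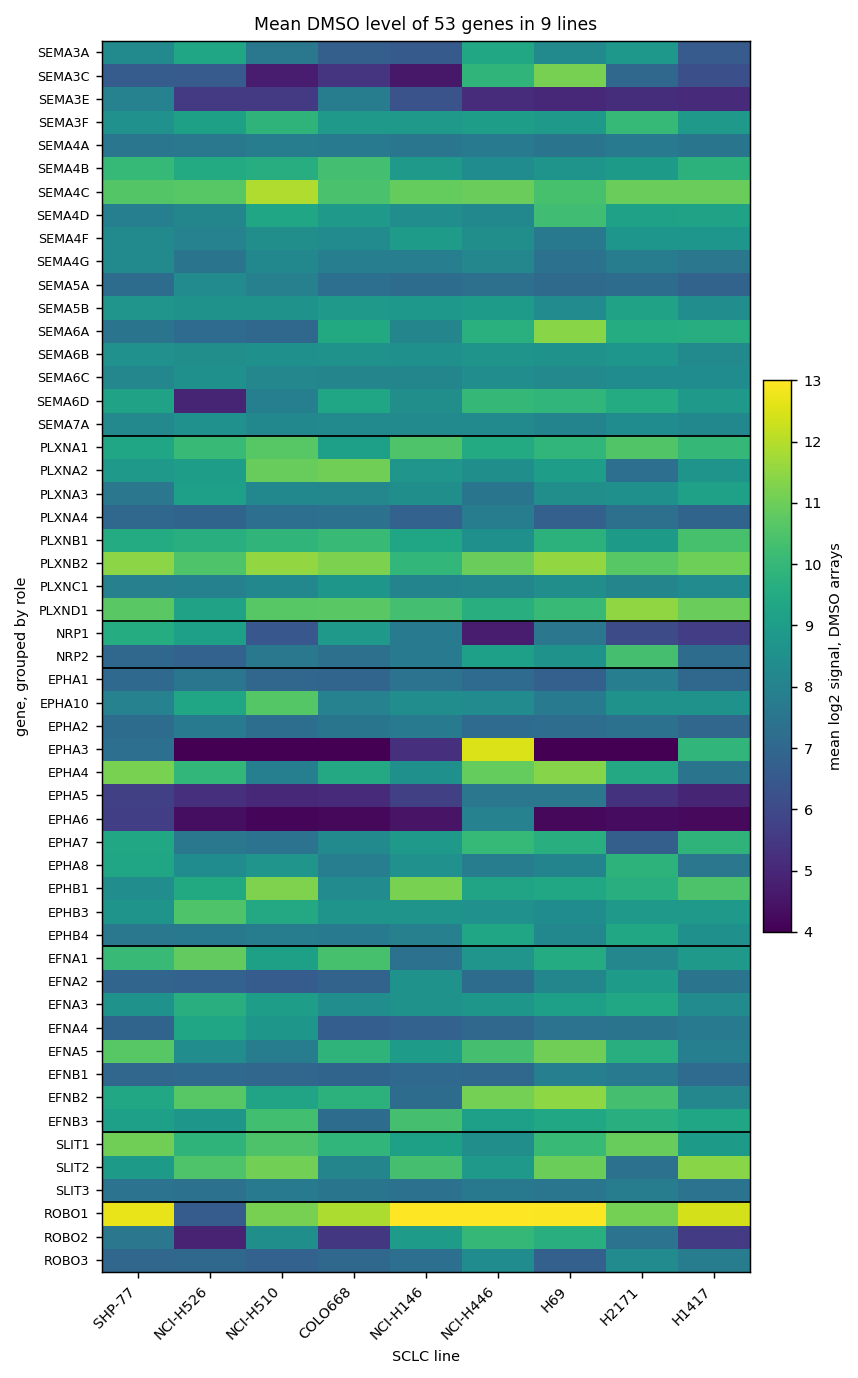
Mean log2 signal under DMSO of the 53 genes (grouped by family) in the 9 lines, as a colour scale. EPHA3 reaches 12.52 in NCI-H446 and is below 4.1 in 5 lines, and ROBO1 is bright everywhere except NCI-H526.

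The response of a line is the 552A signal minus the DMSO signal in log2 units, averaged over the days sampled, and a member is called where limma's Benjamini-Hochberg adjusted p over all 15352 genes was below 0.05. The 9 responses share 1 estimate of the spread. In SHP-77, 6 members rose and 4 fell, which is 11.3% and 7.55% of the 53, where 3.87% of all genes rose and 4.27% fell. NCI-H526 had 10 members higher and 1 lower (18.9% and 1.89%), against 10.7% and 10.5% of all genes. NCI-H510 had 9 higher and 6 lower (17% and 11.3%) against 8.6% and 6.44%, and COLO668 10 higher and 5 lower (18.9% and 9.43%) against 12.3% and 8.81%. In NCI-H146, 2 rose and 2 fell (3.77% each, against 4.27% and 2.12%), and in NCI-H446 3 rose and 1 fell (5.66% and 1.89%, against 4.31% and 1.28%). H69 also had 3 higher and 1 lower, against 2.44% and 1.73%. H2171 had 3 higher and 0 lower against 1.43% and 0.573%. H1417 had 9 higher and 1 lower (17% and 1.89%) against 5.53% and 3.71%. The shares of NCI-H146 and NCI-H446 lay near those of all genes, and no test of these shares was made.

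The median change of the 53 members was small in 8 lines, between -0.02 and 0.05, and 0.12 in H1417, with all-gene medians between -0.02 and 0.02. The median absolute change was 0.17 in H1417 against 0.11 over all genes, and 0.13 in NCI-H510 against 0.07. Over the 9 lines, 55 of 477 pairs of member and line were called higher (11.5%) and 21 lower (4.4%), where 5.94% of all pairs of gene and line were higher and 4.38% lower. The calls fell on 31 of the 53 members (58.5%), against 49.3% of all genes, and 22 members were called in no line. In some line 24 members were higher (45.3%, against 30.2% of all genes) and 16 lower (30.2%, against 27.5%), and 9 were called in both directions (17%, against 8.36%). The share of pairs called lower and the share of members called lower thus lay near those of all genes. The number of calls in a line moved with the days sampled and with single arrays, as given where it matters below.

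**Figure D2:**
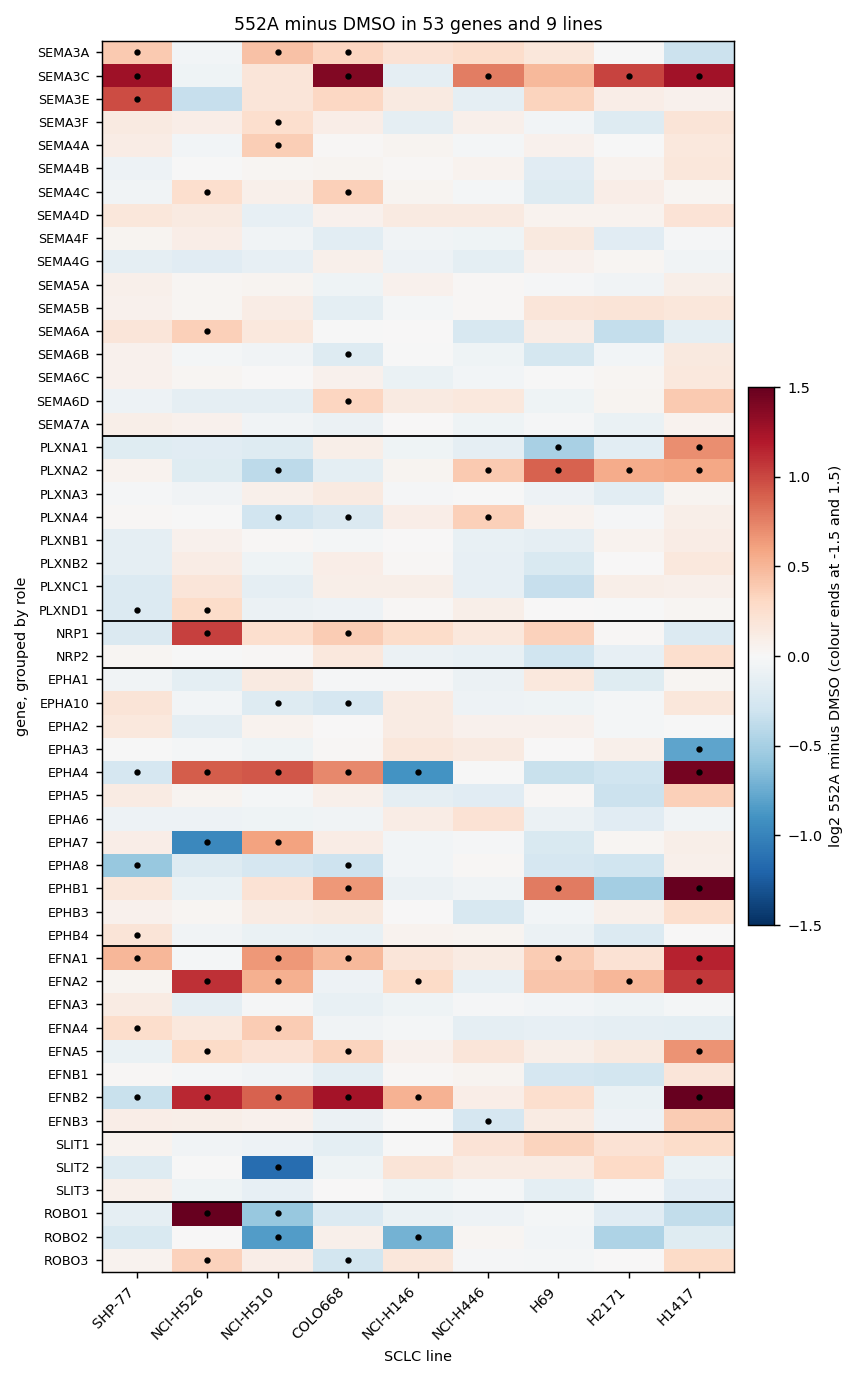
Response of each of the 53 genes in each line (552A minus DMSO, log2; colours reach their ends at a change of 1.5 either way); a dot marks an adjusted p below 0.05. The dots gather on the ephrins EFNA1, EFNA2 and EFNB2, on EPHA4 and on SEMA3C. EPHA4 is marked as higher in 4 lines and lower in 2, and is also blue without a dot in H69 (-0.34) and H2171 (-0.30).

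Among the 17 semaphorins, 9 were called in some line (52.9%, against 49.3% of all genes), with 15 calls higher and 1 lower, or 9.8% and 0.654% of their pairs with a line, where all genes gave 5.94% and 4.38%. SEMA3C carried 5 of them. In SHP-77 its signal was 6.26, 6.62 and 7.11 (lowest, median and highest of 6 DMSO arrays) and 7.25, 8.09 and 9.12 over 8 arrays under 552A. The ranges did not touch, and the response was 1.27 ± 0.10 (SE), a 2.42-fold rise (limma, adjusted p = 7.01e-14). In COLO668 the DMSO arrays lay at 4.87, 5.34 and 5.77 and those under 552A at 6.02, 6.42 and 7.93, a rise of 1.39 ± 0.11 (adjusted p = 1.69e-15). The DMSO level is dim there, so the change may be a lower limit. Without the 6 arrays that stood apart, the rises were 1.17 in SHP-77 and 1.24 in COLO668.

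SEMA3C rose in 3 more lines. In NCI-H446 the DMSO arrays spanned 9.68 to 10.36 (median 9.81) and the 552A arrays 10.42 to 10.80 (median 10.69), with no overlap and a change of 0.77 ± 0.10, 1.71-fold (adjusted p = 1.96e-07). H1417 moved from 6.25 and 6.16 to 7.39 and 7.54, a 2.40-fold rise (adjusted p = 8.69e-07), and H2171 from 6.88 and 7.17 to 7.95 and 8.13, 2.03-fold (adjusted p = 0.000304). In H69, the line with the highest level, SEMA3C went from 11.30 and 11.04 to 11.70 and 11.60, a difference of 0.48 that was not called. The second, dimmer probe set of SEMA3C gave 1.07 in NCI-H446, 0.44 in H1417, 0.21 in SHP-77, 0.07 in COLO668 and -0.03 in H2171. With the mean of both probe sets the H2171 value was 0.50 (adjusted p = 0.179), and the SHP-77 and COLO668 values were 0.74 and 0.73, both still called.

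SEMA3E, which signals through PLXND1 without a neuropilin, was called in SHP-77 only among the 9 lines. Its DMSO arrays lay at 7.07, 8.10 and 8.45 and its 552A arrays at 8.28, 8.98 and 9.98, a rise of 0.97 ± 0.18 (adjusted p = 0.000136) with overlapping ranges; its only probe set is of a kind that can bind other transcripts. SEMA3A, a repellent that binds NRP1, sits next to SEMA3E on chromosome 7 and rose in 3 lines. In NCI-H510 it went from between 7.50 and 7.69 (median 7.63) to between 7.93 and 8.21 (median 8.02), a change of 0.44 ± 0.10 (adjusted p = 0.000533), and changed by 0.39 in SHP-77 and 0.32 in COLO668, where the ranges overlapped. The COLO668 call was lost when DMSO day 7 replicate 1 (0.25, adjusted p = 0.0692), DMSO day 4 replicate 1 (0.27, adjusted p = 0.0603) or 552A day 2 replicate 1 (0.28, adjusted p = 0.0522) was left out.

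The other semaphorin calls were small. SEMA3F (0.25) and SEMA4A (0.37) rose in NCI-H510 without overlap, SEMA4C in NCI-H526 (0.25) and COLO668 (0.36), SEMA6A in NCI-H526 (0.36) and SEMA6D in COLO668 (0.32), while SEMA6B fell by 0.20 in COLO668. The SEMA6D value was 0.09 (adjusted p = 0.262) with the mean of its probe sets. The 8 semaphorins SEMA4B, SEMA4D, SEMA4F, SEMA4G, SEMA5A, SEMA5B, SEMA6C and SEMA7A were called in no line.

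Of the 8 plexins, the semaphorin receptors, 4 were called (50%, near the 49.3% of all genes), with 7 calls higher and 5 lower. These are 9.72% and 6.94% of their pairs with a line, against 5.94% and 4.38% over all genes. PLXNA2, which forms class 3 receptors with neuropilins, rose in 4 lines and fell in 1. In H69 it moved from 8.97 and 9.05 to 9.90 and 9.89, a rise of 0.88 ± 0.14, 1.84-fold (adjusted p = 1.04e-05). H1417 moved from 8.62 and 8.67 to 9.18 and 9.27 (0.58, adjusted p = 0.00254), and NCI-H446 from between 8.16 and 8.69 (median 8.55) to between 8.70 and 9.38 (median 8.82), a change of 0.39 (adjusted p = 0.000299). In none of these lines did the arrays of the treatments overlap. In NCI-H510, where PLXNA2 was brighter, it fell by 0.40 ± 0.08 (adjusted p = 0.000158), from between 10.65 and 11.22 (median 10.85) to between 10.15 and 10.83 (median 10.50), with overlap. The H2171 call (7.30 and 7.27 to 7.71 and 7.97; 0.56, adjusted p = 0.0149) was lost when DMSO replicate 1 (0.57, adjusted p = 0.0944), DMSO replicate 2 (0.54, adjusted p = 0.160) or 552A replicate 2 (0.43, adjusted p = 0.389) was left out, and the other probe set of PLXNA2 gave -0.55 there.

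PLXNA1, a partner of NRP1 in class 3 signalling, moved in opposite directions in a pair of lines measured at day 4. In H1417 it rose from 10.05 and 9.92 to 10.70 and 10.67, 1.63-fold (0.70 ± 0.13, adjusted p = 5.31e-05). In H69 it fell from 9.94 and 9.93 to 9.44 and 9.45, a change of -0.49 ± 0.13 (adjusted p = 0.0138). The arrays of H69 agree closely, but the call was lost when any 1 of its 4 arrays was left out (-0.49 to -0.48, adjusted p from 0.0950 to 0.119); with the mean of the probe sets it was -0.33 (adjusted p = 0.0152).

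PLXNA4, a receptor for SEMA3A and class 6 semaphorins, rose by 0.36 ± 0.08 in NCI-H446 (adjusted p = 0.00102), where its arrays went from between 7.51 and 8.0 (median 7.80) to between 8.01 and 8.56 (median 8.10); the mean of its probe sets gave 0.66 there. It fell by 0.28 in NCI-H510 (adjusted p = 0.00822) and by 0.21 in COLO668 (adjusted p = 0.0471), with overlap in both. The COLO668 value was -0.12 without DMSO day 7 replicate 1 (adjusted p = 0.289), -0.10 without the 6 arrays that stood apart (adjusted p = 0.414), and no longer called in 8 of 12 fits without 1 array. The PLXNA4 call in NCI-H510 was lost without DMSO day 2 replicate 1 (-0.22, adjusted p = 0.0773) or DMSO day 4 replicate 1 (-0.22, adjusted p = 0.0735). PLXND1 changed by 0.27 in NCI-H526 and by -0.20 in SHP-77, and neither call was kept with the mean of its probe sets (0.11, adjusted p = 0.162, and -0.08, adjusted p = 0.321). PLXNA3, PLXNB1, PLXNB2 and PLXNC1 were called in no line.

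NRP1, the co-receptor of SEMA3A that also binds VEGFA, rose in NCI-H526. The DMSO arrays of that line read 8.50, 9.15 and 9.27 (lowest, median and highest) and the 552A arrays 9.71, 10.11 and 10.42. The ranges did not overlap, and the rise was 1.03 ± 0.12, 2.04-fold (adjusted p = 2.25e-10). The change of 0.38 in COLO668 (adjusted p = 0.0167) was lost without DMSO day 7 replicate 1 (0.31, adjusted p = 0.0724) and with the mean of the probe sets of NRP1 (0.08, adjusted p = 0.530). NRP2 was called in no line.

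Of 8 ephrins, 6 were called in some line (75%, against 49.3% of all genes), with 20 calls higher and 2 lower. These are 27.8% and 2.78% of their pairs with a line, against 5.94% and 4.38% over all genes, and the median response of the 8 was 0.52 in H1417 and 0.29 in NCI-H510, against 0.01 and -0.01 over all genes. In the other lines the ephrin median lay between -0.07 and 0.12. The higher calls gathered on EFNA1, EFNA2 and EFNB2, with 5 each, while EFNA3 and EFNB1 were called in no line. EFNB2, a transmembrane ephrin that binds EphB receptors and EPHA4, had the largest single rise. In H1417 its signal went from 8.13 and 8.17 to 10.37 and 10.42, a change of 2.24 ± 0.17, or 4.73-fold (adjusted p = 2.46e-15).

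EFNB2 rose in 4 more lines. NCI-H526 arrays read 10.53, 10.65 and 10.78 under DMSO (lowest, median and highest) and 11.58, 11.70 and 12.02 under 552A (1.13 ± 0.10, 2.18-fold, adjusted p = 2.18e-14). COLO668 arrays read 9.60, 9.81 and 9.87, then 10.45, 10.85 and 11.85 (1.25 ± 0.10, 2.38-fold, adjusted p = 2.44e-15), and NCI-H510 arrays 9.08, 9.27 and 9.38, then 9.91, 10.21 and 10.36 (0.89 ± 0.10, 1.85-fold, adjusted p = 2.23e-10). The arrays of the treatments were apart in all of these. NCI-H146, with the lowest EFNB2 level, rose from 6.69, 7.24 and 7.55 to 7.52, 7.68 and 8.10 with a slight overlap (0.53 ± 0.10, adjusted p = 0.000109).

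EFNB2 ran the other way in SHP-77, from 9.10, 9.44 and 9.49 to 8.45, 8.93 and 9.48, a change of -0.33 ± 0.09 (adjusted p = 0.0167) with overlapping arrays. That call was lost without 552A day 2 replicate 2 (-0.29, adjusted p = 0.0952), 552A day 4 replicate 1 (-0.32, adjusted p = 0.0554) or DMSO day 7 replicate 1 (-0.30, adjusted p = 0.0781), and without the 6 arrays that stood apart the value was -0.27 (adjusted p = 0.0593). The lines with the brightest EFNB2 were not called: H69 went from 11.51 and 11.47 to 11.80 and 11.67 (0.25), and NCI-H446 changed by 0.10. In H2171 the arrays read 10.40 and 10.30, then 10.27 and 10.23. The second probe set of EFNB2 had the sign of the first in all 6 called lines, and the mean of both gave 0.34 in NCI-H146, still called.

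EFNA1, a membrane-anchored ephrin that binds EPHA2 and other EphA receptors, was called higher in 5 lines. EFNA1 has 1 probe set. In NCI-H510 its arrays read 9.0, 9.15 and 9.19 under DMSO and 9.70, 9.76 and 9.93 under 552A, apart by more than the spread of either (0.65 ± 0.07, 1.57-fold, adjusted p = 1.75e-11). H1417 rose from 8.83 and 8.84 to 9.85 and 10.12 (1.16 ± 0.12, 2.23-fold, adjusted p = 2.62e-11). The rises of 0.50 in SHP-77 (adjusted p = 8.94e-08) and 0.49 in COLO668 (adjusted p = 4.74e-08) came with overlapping arrays over the days; without the 6 arrays that stood apart they were 0.41 and 0.45. In H69 EFNA1 went from 9.52 and 9.56 to 9.94 and 9.90 (0.38, adjusted p = 0.0440), a call lost when any 1 of the 4 arrays was left out (0.36 to 0.40, adjusted p from 0.176 to 0.277). EFNA1 and EFNA3, neighbours on chromosome 1 with no protein-coding gene between, differed in this: EFNA3 was called in no line.

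EFNA2, another membrane-anchored ligand of EphA receptors, also rose in 5 lines. Of its 3 probe sets 1 was usable, so these values have no check from another. The largest change was in NCI-H526, from 6.66, 6.79 and 7.07 to 7.42, 7.89 and 8.29 (1.09 ± 0.08, 2.13-fold, adjusted p = 4.10e-17). H1417 rose from 7.46 and 7.43 to 8.37 and 8.63 (1.06 ± 0.14, 2.08-fold, adjusted p = 5.61e-08), and NCI-H510 from 6.46, 6.54 and 6.87 to 6.95, 7.16 and 7.27 (0.53 ± 0.08, adjusted p = 7.62e-07). No array of one treatment lay within the other in these 3 lines.

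The remaining calls of EFNA2 were less firm. In H2171 it went from 8.92 and 8.98 to 9.40 and 9.51 (0.50, adjusted p = 0.0367), but was called in none of the fits without 1 of the 4 arrays of that line (0.45 to 0.56, adjusted p up to 0.350). In NCI-H146 EFNA2 changed by 0.29 (adjusted p = 0.0162), from 8.49, 8.59 and 8.71 to 8.49, 8.98 and 9.15. Its day 7 arrays did not differ there, at 8.58 and 8.49 under DMSO and 8.56 and 8.49 under 552A. That EFNA2 call was lost without 552A day 2 replicate 2 (0.26, adjusted p = 0.0836), DMSO day 4 replicate 2 (0.27, adjusted p = 0.0581), 552A day 4 replicate 1 (0.26, adjusted p = 0.0581) or DMSO day 7 replicate 2 (0.27, adjusted p = 0.0503).

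EFNA5, which binds EphA receptors, rose in 3 lines. In H1417 its arrays read 7.81 and 7.93 under DMSO and 8.28 and 8.80 under 552A (0.67 ± 0.14, 1.59-fold, adjusted p = 0.000445); without 552A replicate 2 the value was 0.41 (adjusted p = 0.152). EFNA5 changed by 0.34 in COLO668 (adjusted p = 0.00121) and 0.29 in NCI-H526 (adjusted p = 0.00485), with overlap in both, and its other usable probe sets had the same sign. At day 4 alone the values were 0.09 in COLO668 and 0.28 in NCI-H526, neither called. In COLO668 the response of EFNA5 differed by 0.61 between day 7 and day 2 (limma, adjusted p = 0.0609). EFNA4 rose by 0.38 in NCI-H510 and 0.26 in SHP-77 (adjusted p = 0.0436, lost in 8 of 14 fits without 1 array), and EFNB3 fell by 0.25 in NCI-H446 (adjusted p = 0.0319, lost in 8 of 13). EFNB1 was called in no line.

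**Figure D3:**
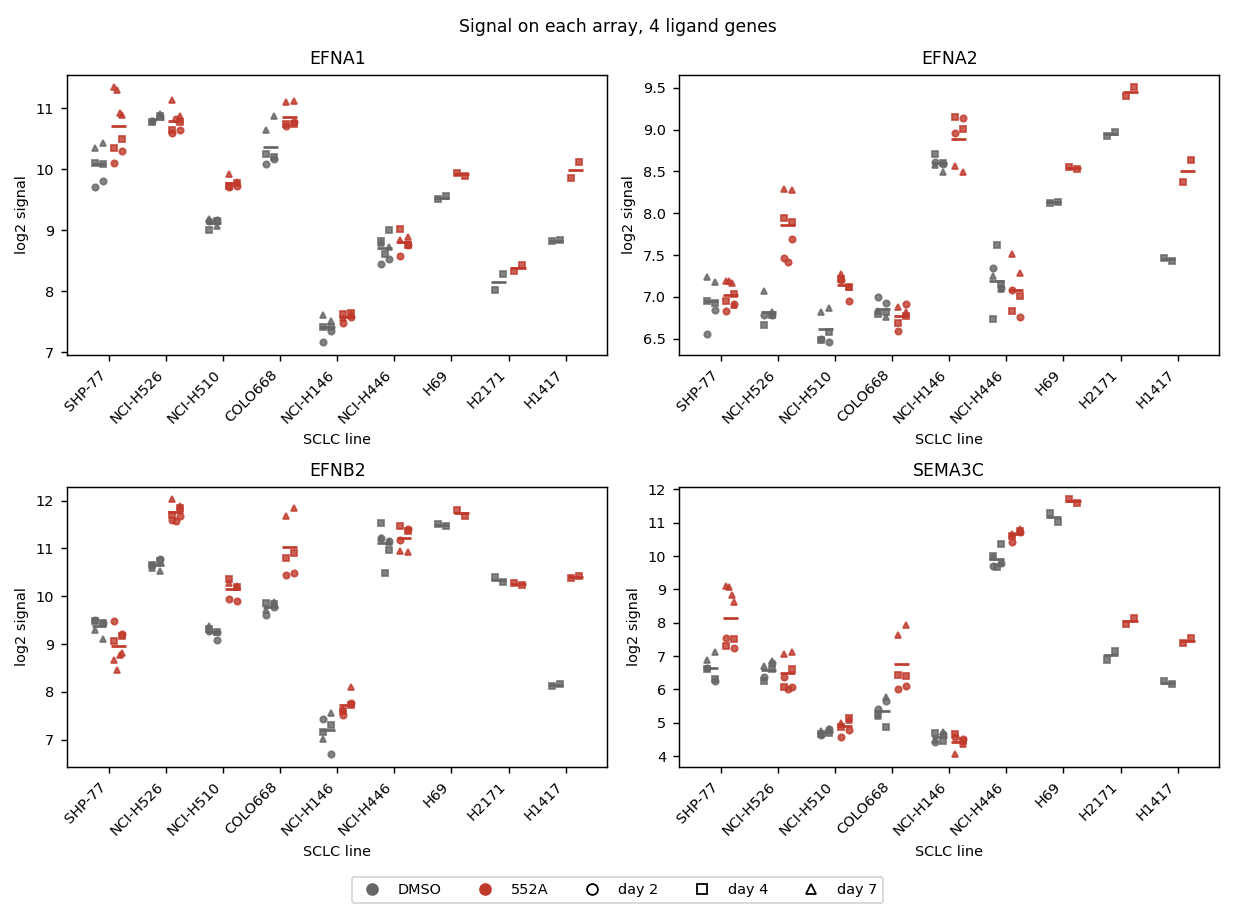
Log2 signal of EFNA1, EFNA2, EFNB2 and SEMA3C on every array, by line (grey DMSO, red 552A; circle, square and triangle for day 2, 4 and 7; bars are means). In H1417 both 552A arrays lie above both DMSO arrays for all 4 genes, and EFNB2 in SHP-77 lies lower on average under 552A.

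Of the 12 Eph receptors, 7 were called (58.3%, against 49.3% of all genes), with 9 calls higher (8.33% of pairs, against 5.94%) and 8 lower (7.41%, against 4.38%). EPHA4, which binds both ephrin classes, was called in 6 lines, higher in 4 and lower in 2. H1417 moved from 7.52 and 7.37 to 8.86 and 8.92 (1.44 ± 0.13, 2.71-fold, adjusted p = 8.25e-13). NCI-H510 arrays read 7.69, 7.90 and 7.99, then 8.59, 8.81 and 9.07 (0.93 ± 0.07, 1.91-fold, adjusted p = 3.86e-15). NCI-H526 read 9.89, 9.97 and 10.06, then 10.66, 10.74 and 11.13 (0.90 ± 0.07, 1.87-fold, adjusted p = 2.77e-15). COLO668 also rose without overlap, from 9.04, 9.46 and 9.78 to 9.84, 10.18 and 10.64 (0.73 ± 0.07, adjusted p = 1.90e-11).

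In NCI-H146 EPHA4 fell, from 8.39, 8.53 and 8.69 to 7.28, 7.67 and 7.97. No 552A array there reached the lowest DMSO array, and the change was -0.89 ± 0.07 (adjusted p = 5.87e-14), 1.86-fold lower. In SHP-77 EPHA4 changed by -0.26 ± 0.07 (adjusted p = 0.0155), with overlap. That SHP-77 call was lost without 552A day 2 replicate 2 (-0.24, adjusted p = 0.0607), DMSO day 4 replicate 2 (-0.23, adjusted p = 0.0639), 552A day 4 replicate 1 (-0.24, adjusted p = 0.0524) or DMSO day 7 replicate 1 (-0.25, adjusted p = 0.0549). The 3 other usable probe sets of EPHA4 had the same sign as the one used in all 18 comparisons over the called lines, but with the mean of the probe sets the changes were smaller, 0.90 in H1417, -0.52 in NCI-H146 and 0.61 in NCI-H510, all still called. NCI-H146 was thus the line in which EFNB2 rose and EPHA4 fell, while in NCI-H526, NCI-H510, COLO668 and H1417 both rose.

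EPHA7, a receptor for ephrin-A ligands, was called in opposite directions in NCI-H526 and NCI-H510. In NCI-H526 it fell from 7.30, 7.64 and 7.97 to 6.34, 6.70 and 7.20 (-0.97 ± 0.09, adjusted p = 2.78e-12), and in NCI-H510 it rose from 7.26, 7.43 and 7.57 to 7.84, 7.99 and 8.34 (0.61 ± 0.10, 1.52-fold, adjusted p = 2.61e-06). The arrays of the treatments were apart in both lines. So the lines started from DMSO medians of 7.64 and 7.43 and moved apart.

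EPHB1, a receptor for the transmembrane ephrins, rose in 3 lines. H1417 moved from 10.53 and 10.43 to 11.91 and 12.10 (1.53 ± 0.15, 2.89-fold, adjusted p = 3.62e-11) and H69 from 9.39 and 9.36 to 10.20 and 10.12 (0.78 ± 0.15, 1.72-fold, adjusted p = 0.000455). COLO668 arrays read 7.95, 8.37 and 8.65, then 8.78, 9.01 and 9.23 (0.65 ± 0.09, adjusted p = 5.26e-08), again without overlap. The other probe sets of EPHB1 changed by 0.13 and 0.10 in COLO668, and the mean of all of them by 0.29, still called.

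EPHA8, one of the less studied ephrin-A receptors, fell in SHP-77 from 8.89, 9.26 and 9.78 to 8.54, 8.71 and 9.0 (-0.57 ± 0.09, adjusted p = 4.38e-06) and in COLO668 from 7.59, 7.86 and 8.14 to 7.33, 7.55 and 7.78 (-0.31 ± 0.09, adjusted p = 0.00907), with some overlap in both. Its other probe set gave 0.08 in SHP-77 and -0.17 in COLO668. The SHP-77 value of EPHA8 was -0.25 with the mean of both probe sets, still called, and -0.43 without the 6 arrays that stood apart. EPHA3 fell in H1417, from 10.07 and 9.79 to 8.94 and 9.33 (-0.79 ± 0.21, adjusted p = 0.00667). The call of EPHA3 was lost without DMSO replicate 1 (-0.65, adjusted p = 0.125) or 552A replicate 1 (-0.60, adjusted p = 0.187). In NCI-H446, where EPHA3 was brightest, its mean was 12.52 under DMSO and 12.66 under 552A, a difference that was not called.

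EPHA10, a receptor without kinase activity, fell by 0.26 in COLO668 and 0.19 in NCI-H510 (adjusted p = 0.0463, lost in 9 of 12 fits without 1 array). The COLO668 call was lost without 552A day 2 replicate 1 (-0.18, adjusted p = 0.0591) and with the mean of the probe sets of EPHA10 (-0.08, adjusted p = 0.378). EPHB4, the receptor of EFNB2 in vessels, rose by 0.20 in SHP-77 (adjusted p = 0.0304, lost in 7 of 14), and by 0.07 with the mean of its probe sets (adjusted p = 0.320). EPHA1, EPHA2, EPHA5, EPHA6 and EPHB3 were called in no line.

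Among the SLIT ligands, only SLIT2 was called, in 1 of the 9 lines. Its arrays in NCI-H510 read 10.99, 11.08 and 11.25 under DMSO and 9.57, 10.06 and 10.19 under 552A. The ranges were apart, and the fall was 1.15 on the log2 scale (SE 0.10, 2.22-fold lower, adjusted p = 1.36e-13); its other probe sets gave -1.04 and -0.96. In H1417, with the highest SLIT2 level, the mean was 11.40 under DMSO and 11.30 under 552A. SLIT1 and SLIT3 were called in no line.

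All 3 ROBO receptors were called, where 49.3% of all genes were, with 2 calls higher and 4 lower. These are 7.41% and 14.8% of their pairs with a line, against 5.94% and 4.38% over all genes. With 3 genes, these shares are too coarse to read as a difference. ROBO1 in NCI-H526, the line with the low DMSO level, rose from 6.02, 6.62 and 7.10 to 7.69, 8.42 and 9.11 (1.76 ± 0.08, 3.39-fold, adjusted p = 3.56e-25). Its highest 552A array there still lay below the DMSO mean of every other line. In NCI-H510 ROBO1 fell from 10.99, 11.17 and 11.25 to 10.45, 10.56 and 10.78 (-0.57 ± 0.08, adjusted p = 2.75e-07), again without overlap. ROBO1 had 1 usable probe set.

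ROBO2 fell in NCI-H510 from 8.20, 8.51 and 8.71 to 7.22, 7.71 and 7.84 (-0.84 ± 0.14, adjusted p = 6.29e-06) and in NCI-H146 from 8.77, 8.96 and 9.07 to 7.77, 8.22 and 8.61 (-0.71 ± 0.14, adjusted p = 0.000292). No 552A array overlapped the DMSO arrays in either, and the other probe sets of ROBO2 had the same sign in all 4 comparisons; the mean of the probe sets gave -0.46 in NCI-H146, still called. In NCI-H526, where ROBO1 rose, ROBO2 stayed dim, with means of 4.86 under DMSO and 4.88 under 552A. In NCI-H510, SLIT2, ROBO1 and ROBO2 all fell. ROBO3 changed by 0.34 in NCI-H526 and by -0.27 in COLO668 (adjusted p = 0.0241; lost in 6 of 12 fits without 1 array, with -0.19 and adjusted p = 0.166 without 552A day 4 replicate 1).

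**Figure D4:**
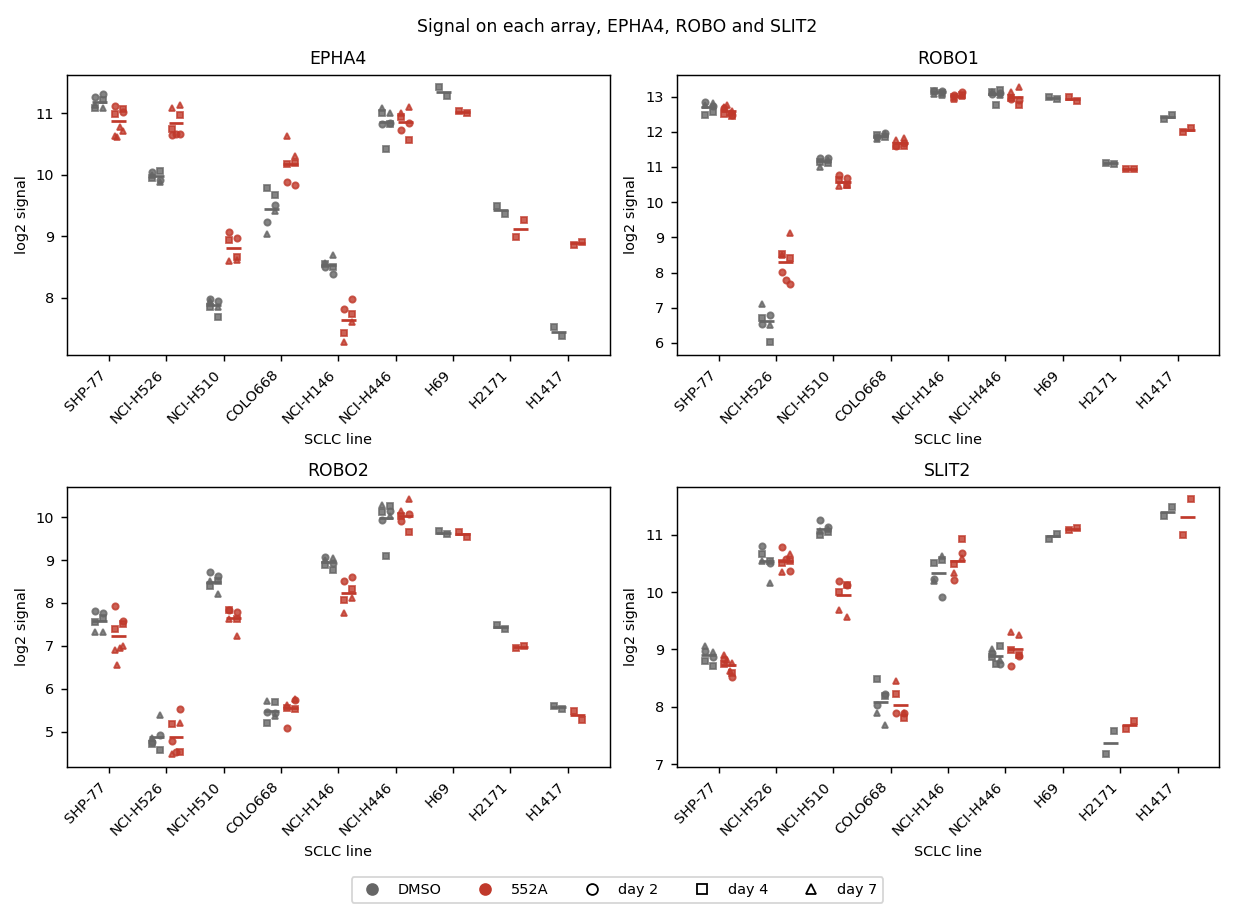
Log2 signal of EPHA4, ROBO1, ROBO2 and SLIT2 on every array, by line (grey DMSO, red 552A; circle, square and triangle for day 2, 4 and 7; bars are means). ROBO1 in NCI-H526 climbs from 6.62 to 8.42 (medians) while the other lines stay above 10, and SLIT2 separates by treatment in NCI-H510.

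Whether a change was shared by the lines was asked at day 4, which all 9 have, with the line as the unit. Of the 53 members, 0 passed (limma, adjusted p below 0.05), where 0.0521% of all genes did, or 8 genes. At an unadjusted p below 0.05 there were 8 members, 6 of them higher, which is 15.1% against 12.5% of all genes. SEMA3C had the smallest p, with a mean of 0.66 ± 0.15 (SE over lines; limma, adjusted p = 0.121) and 7 of 9 lines above 0. EFNA5 followed with 0.21 ± 0.06 (adjusted p = 0.187; 9 of 9 lines above 0), then EFNA1 with 0.38 ± 0.11 (adjusted p = 0.187; 8 of 9) and EFNA2 with 0.44 ± 0.14 (adjusted p = 0.240; 7 of 9). Tested against the spread between arrays, which leaves out how lines differ, 9 members passed, these 4 among them.

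Differences between lines were tested over the 6 lines sampled on all days. The response differed in 30 of 53 members (56.6%; limma F test, adjusted p below 0.05), where 38.1% of all genes did. ROBO1 had the widest range, from -0.57 in NCI-H510 to 1.76 in NCI-H526 (adjusted p = 3.13e-23). EPHA4 ranged over 1.82 log2 units, EFNB2 over 1.59, EPHA7 over 1.58 and SEMA3C over 1.52, with adjusted p of 4.95e-23, 3.77e-15, 2.49e-12 and 8.09e-15.

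The response of most members did not pass the test for change with time. From day 2 to day 7 it changed in 7 of 318 pairs of member and line (2.2%), against 0.943% of all pairs. In COLO668 the change was upward for 5 members. SEMA3C went from 0.52 at day 2 to 1.35 at day 4 and 2.29 at day 7 (day 7 minus day 2, 1.76 ± 0.26, adjusted p = 8.11e-06), and EFNB2 from 0.78 to 1.00 and 1.98 (1.20 ± 0.24, adjusted p = 0.00119). Both calls held in every fit without 1 of the line's arrays. COLO668 holds arrays at day 7 with a high ACTB 3′ to 5′ difference, and without the 6 arrays that stood apart the differences were 1.33 for SEMA3C and 1.03 for EFNB2, both still called. With the mean of its probe sets the difference of SEMA3C was 0.97 (adjusted p = 0.0160).

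The other 3 members of COLO668 were less firm. EPHA4 went from 0.49 to 0.45 and 1.24 (0.75 ± 0.18, adjusted p = 0.00877), PLXNA1 changed by 0.65 ± 0.18 (adjusted p = 0.0259) and SEMA4C by 0.54 ± 0.15 (adjusted p = 0.0218). Leaving out 1 array in turn ended the call of EPHA4 in 3 of 12 fits (0.57 to 0.94, adjusted p up to 0.0849), of PLXNA1 in 5 of 12 (0.49 to 0.80, up to 0.181) and of SEMA4C in 5 of 12 (0.42 to 0.65, up to 0.150). With the mean of its probe sets the value of PLXNA1 was 0.17 (adjusted p = 0.484) and that of EPHA4 0.56 (adjusted p = 0.0626).

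In NCI-H526 ROBO1 rose by 1.17 at day 2, 2.11 at day 4 and 2.00 at day 7, a difference between day 7 and day 2 of 0.83 ± 0.20 (adjusted p = 0.0234). It was 0.53 without 552A day 7 replicate 2 (adjusted p = 0.608) and 0.54 without DMSO day 7 replicate 2 (adjusted p = 0.516), and the call of ROBO1 was lost in 5 of 13 such fits. EPHA7 in that line went from -0.54 to -0.93 and -1.44, a difference of -0.90 ± 0.23 (adjusted p = 0.0462), lost in 7 of 13 fits (-1.10 to -0.71, adjusted p up to 0.487). EPHA4 in NCI-H146 read -0.55, -0.94 and -1.19 and EFNB2 in NCI-H510 0.74, 0.99 and 0.93, and neither change with time was called.

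**Figure D5:**
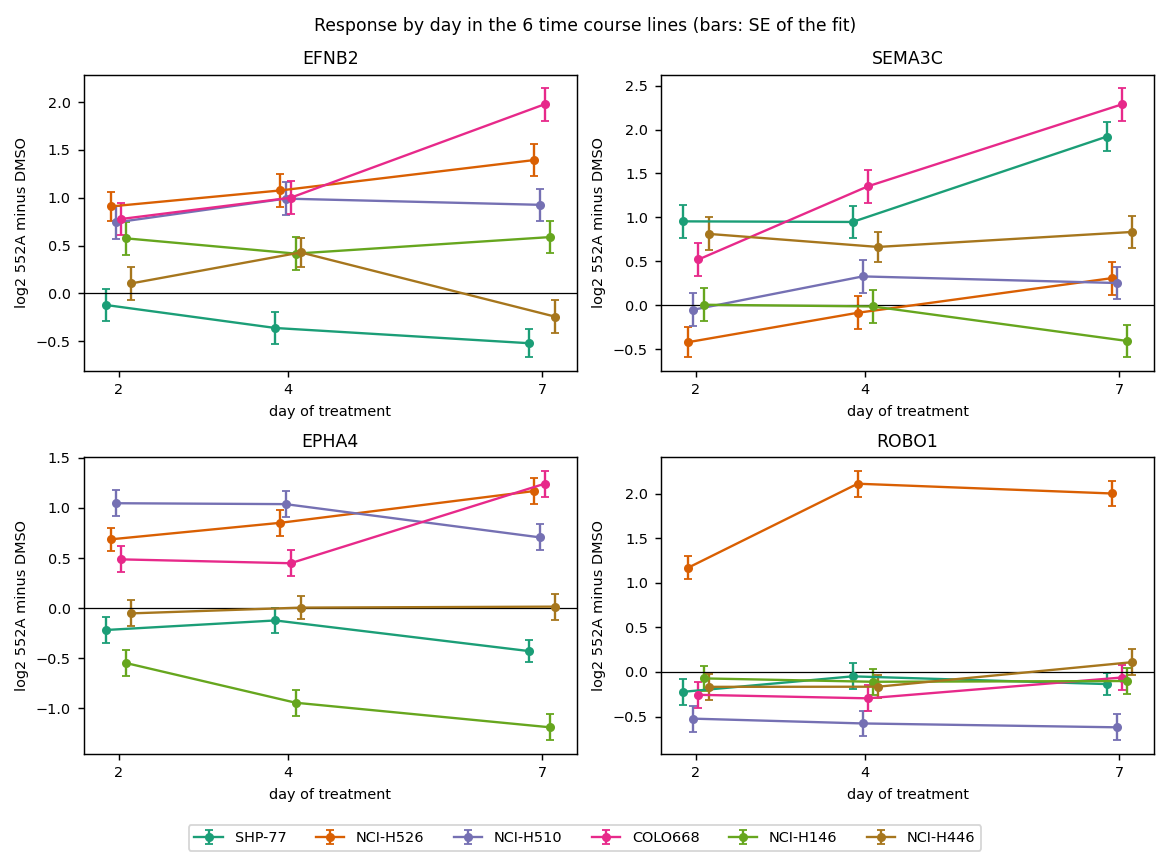
Response (552A minus DMSO, log2, ± SE) of EFNB2, SEMA3C, EPHA4 and ROBO1 at days 2, 4 and 7 in 6 lines. SEMA3C in COLO668 reaches 2.29 at day 7, and EPHA4 in NCI-H146 lies below 0 on all 3 days.

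In COLO668, SHP-77, NCI-H526 and NCI-H146 the counts by day rose along with the number of all genes called. COLO668 had 3 members higher and 0 lower at day 2, and 15 higher and 4 lower at day 7, when 4084 of all genes were called against 378 at day 2. SHP-77 had 1 member called at day 2 and 6 higher and 3 lower at day 7, with 67 and 1541 of all genes. Day 7 of COLO668 and SHP-77 holds the arrays with a high ACTB 3′ to 5′ difference. SHP-77 also has 4 arrays under 552A on that day. What these arrays add to the counts was not tested. NCI-H526 had 5 members higher and 1 lower at day 2, and 8 and 1 at day 7, with 706 and 1805 of all genes. NCI-H146 had 0 higher and 1 lower at day 2, and 1 and 2 at day 7, with 160 and 379 of all genes. NCI-H446 had 2 higher and 7 lower at day 4, the day that holds its array with the narrow range, and 4 higher and 0 lower at day 7, with 1638 and 477 of all genes called. NCI-H510 had 5 higher and 4 lower at day 2, 6 and 2 at day 4, and 5 and 3 at day 7, while the number of all genes called went from 539 to 722 and 968.

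The DMSO arrays changed over the same days as well. From day 2 to day 7 under DMSO 9 of 318 pairs were called (2.83%), against 2.44% of all pairs, and 7 of the 9 were in SHP-77. There EPHB1 fell by 0.98 (adjusted p = 3.31e-05), while EFNA1 rose by 0.64 (adjusted p = 0.000387), EFNA2 by 0.51 (adjusted p = 0.0164), SEMA4G by 0.64, EPHA8 by 0.51, EFNA3 by 0.48 and SEMA6D by 0.48. EFNA1 also rose by 0.64 in COLO668 (adjusted p = 0.000243), and SEMA4C fell by 0.41 in NCI-H510. Without the 6 arrays that stood apart, which include SHP-77 DMSO day 7 replicate 1, the values of EFNA3 (0.33), EPHA8 (0.18), SEMA4G (0.47) and SEMA6D (0.41) were no longer called in SHP-77, while EPHB1 (-1.06) and EFNA1 were. Most of these calls were lost in some fits without 1 array. Each such fit leaves 1 array in a group of DMSO arrays, so its precision is lower. In SHP-77 the call of EFNA2 was lost without DMSO day 2 replicate 1 (0.36, adjusted p = 0.246) or DMSO day 7 replicate 1 (0.48, adjusted p = 0.269). EFNA3, EPHA8, SEMA4G and SEMA6D were each lost without DMSO day 2 replicate 1, day 2 replicate 2 or day 7 replicate 1 (adjusted p up to 0.568, 0.773, 0.483 and 0.400), and EPHA8 ran from 0.18 without day 7 replicate 1 to 0.83 without day 7 replicate 2. With the mean of its probe sets EPHB1 changed by -0.46, still called. The SEMA4C value in NCI-H510 (adjusted p = 0.0451) was lost without any 1 of the 4 DMSO arrays of days 2 and 7 (-0.51 to -0.31, adjusted p up to 0.564) and with the mean of its probe sets (-0.26, adjusted p = 0.201). The drift of EFNA1 under DMSO, 0.64 in both SHP-77 and COLO668, stands beside responses to 552A of 0.50 and 0.49 in these lines. These responses compare the treatments within each day, whereas the arrays of the treatments overlapped with the days pooled.

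Genes that act with these families were taken from 3 lists. Of 42 tested semaphorin pathway partners, the most were called in COLO668, 13 higher and 7 lower (31% and 16.7%, against 12.3% and 8.81% of all genes). In the other lines 0 to 6 were higher and 0 to 6 lower. The 6 higher were in NCI-H526 (14.3%, against 10.7% of all genes) and the 6 lower in NCI-H146 (14.3%, against 2.12%). COLO668 had the most calls over all genes (3248), but NCI-H526 had nearly as many (3245), with 6 partners higher and 2 lower. DPYSL4, a collapsin response mediator, was called higher in 6 lines (0.03 in H2171 to 0.53 in NCI-H510), and VEGFA, a ligand of NRP1, in 4 (-0.27 in H69 to 0.97 in NCI-H146). PLXDC2 was higher in 3 and lower in 1 (-0.49 in NCI-H146 to 0.73 in COLO668), and MET, which pairs with B-type plexins, lower in 4 (-0.83 in COLO668 to 0.25 in H1417). MICAL2 (4 lower), FYN and NRCAM (3 higher and 1 lower each) and DPYSL3 (2 and 2) were called in as many lines as VEGFA, PLXDC2 and MET, with a narrower range of response.

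Of 38 ephrin pathway partners, 14 were higher in COLO668 (36.8%), 10 in NCI-H526 (26.3%) and 8 in NCI-H510 (21.1%). These are the 3 lines with the most genes higher among all genes (12.3%, 10.7% and 8.6%). In the other lines 0 to 5 were higher. Between 0 and 5 were lower in a line, with 5 each in SHP-77, NCI-H526 and NCI-H510 (13.2%). Of all genes 4.27%, 10.5% and 6.44% were lower there. INPPL1, a phosphatase that binds EPHA2, was lower in 7 lines (-0.73 in H1417 to 0.15 in H2171), and GRB10, an adaptor, higher in 6 (up to 1.00 in H1417). VAV2, an exchange factor in Eph signalling, was lower in 5 lines and was the 1 partner on the 3 lists called in the shared response at day 4 (-0.25 ± 0.03, adjusted p = 0.0270). Its relative VAV3 was higher in 4 lines (-0.06 to 0.57), as were ITSN1 and SDCBP with a narrower range.

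Of 35 SLIT and ROBO partners, 12 were higher in COLO668 (34.3%), 7 in NCI-H510 (20%) and 6 in H1417 (17.1%). Of all genes 12.3%, 8.6% and 5.53% were higher there. Between 0 and 5 partners were lower in a line. NCI-H526 and H1417 had 5 each (14.3%, against 10.5% and 3.71% of all genes). COLO668 and NCI-H510 had 2 each (5.71%, against 8.81% and 6.44%). NELL1, a secreted relative of the ROBO3 ligand NELL2, was lower in 5 lines and reached -2.25 in H1417. FLRT2, a membrane protein whose family binds UNC5 and ROBO receptors, was higher in 3 lines (-0.20 to 1.66 in H1417). GPC4 and SOS2 (3 higher each), CXCR4 (3 lower) and DOCK1 (2 higher and 1 lower) were called in as many lines as FLRT2. LRIG3 was higher in 5 lines and lower in 1 (-0.70 in NCI-H146 to 0.69 in COLO668), and LRIG1 higher in 4 and lower in 2 (-0.22 in NCI-H526 to 0.39 in COLO668).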

How the data were processed

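RNA from 9 SCLC lines under DMSO or 552A was measured on 88 HG-U133 Plus 2.0 arrays. The authors deposited 1 log2 signal per probe set and array; how they were background corrected and scaled, and with which program, is not given in the sources used here. They were not normalized again. Of 54675 probe sets, 41091 name 1 gene, 1801 several, 11721 none and 62 are controls, by the platform annotation. Probe sets whose mean lay above the median of all values (7.41) in at least 1 group were kept, and a gene was represented by its usable probe set with the highest mean, setting aside those marked as cross-hybridizing (_x_at) where another existed. This left 15352 of 19775 genes.

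Means of the 42 groups were fitted with limma 3.58.1 (lmFit, eBayes; 46 residual degrees of freedom, prior 6.52) in R 4.3.3 with the data.table package, version 1.17.8. Contrasts gave each line's mean of 552A minus DMSO over its days, each day, the F test over 6 lines, the change from day 2 to day 7, the DMSO change and the DMSO level F test; the shared response was a limma fit of the 9 lines' day 4 ratios. P-values were adjusted by Benjamini-Hochberg over all genes, separately for each contrast. For the time contrasts this was done within each line and not across lines. On simulated data, 97% of 200 genes changed by 0.5 were recovered in SHP-77 and 57.5% in H2171, of 15352 genes. The number of arrays limits the precision.

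The members and the partner and marker lists were chosen with earlier results of these data known. Members named are those called in 1 direction in 5 or more lines or in both directions in 2 lines each, the 3 largest called changes of each line, the 4 smallest p of the shared response and the 4 widest ranges of level and of response; all others called or not called are listed. For each partner list the 4 genes called in the most lines are named, with ties broken by the wider range of response and the tied genes listed. Alternatives were quantile normalization, other filters, the mean of a gene's probe sets, an intensity trend, each line's own arrays, day 4 only, a replicate block and each array left out. A fit without 6 arrays, and 1 with the difference of the ACTB probe sets as a covariate, were chosen after seeing the data. Promoters, searched in Python 3.11.15 (pandas 2.3.3, numpy 2.4.6, matplotlib 3.10.9), come from RefSeq.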

Additional observations from a re-analysis of the deposited data

Results flagged for a closer look

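The signal of EFNA2 on SHP-77 552A day 7 replicate 4 was 6.90, far from the other arrays of its group of 4. Among the 9 day 4 ratios of EFNA5, that of H1417 (0.67) stood apart from the rest. Of 21 sets of values examined this way, chance alone picks about 1 in 20.

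The response differed between the 6 lines sampled on all days in an F test of the difference for 15 of the 17 named members. Of all genes 38.1% did so. Members were named in part for the size or range of these same responses, so this count is no separate support. The gap between the highest and the lowest line was 2.33 log2 units for ROBO1, 1.82 for EPHA4, 1.59 for EFNB2, 1.58 for EPHA7 and 1.52 for SEMA3C. It was 1.35 for SLIT2, 1.32 for SEMA3E, 1.20 for EFNA2, 0.91 for ROBO2, 0.79 for PLXNA2 and 0.76 for EPHB1. The narrowest gaps were 0.69 for EFNA1, 0.64 for PLXNA4, 0.59 for EPHA8 and 0.44 for EFNA5.

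The response differed between day 7 and day 2, as a tested interaction, in COLO668 for SEMA3C (1.76), EFNB2 (1.20), EPHA4 (0.75) and PLXNA1 (0.65). In NCI-H526 it differed for ROBO1 (0.83) and EPHA7 (-0.90).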

How the results depend on the processing

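No called pair of member and line changed direction under any alternative run, and 56 of 76 kept their call in every fit without 1 array of the line. With day 4 only, the number of members called was 2 in SHP-77, 7 in NCI-H526, 8 in NCI-H510, 5 in COLO668, 1 in NCI-H146 and 9 in NCI-H446, against 10, 11, 15, 15, 4 and 4; fewer arrays enter those fits. With each line's own arrays it was 1 in NCI-H446, 7 in H69 and 1 in H2171, against 4, 4 and 3. Quantile normalization gave 11 pairs whose response changed with time, against 7. Without the 6 arrays that stood apart the counts were 17 in NCI-H526, 7 in NCI-H146, 7 in H69, 19 for the change with time and 23 for the DMSO change (main 11, 4, 4, 7 and 9). The shared response tested against the spread between arrays called 9 members in place of 0; it was 0 in all 9 fits without 1 line. Leaving out each array in turn gave 6 to 14 members in SHP-77, 3 to 8 in NCI-H446, 2 to 3 in H69, 1 to 2 in H2171, 4 to 14 pairs for the change with time and 3 to 18 for the DMSO change. NCI-H446 reached 8 without DMSO day 4 replicate 1, SHP-77 6 without 552A day 2 replicate 2 or 552A day 4 replicate 1, H69 2 without DMSO replicate 2 or either 552A array, and H2171 1 without DMSO or 552A replicate 2. The change with time gave 4 without COLO668 DMSO or 552A day 2 replicate 2, 11 without COLO668 DMSO day 7 replicate 1 or NCI-H446 DMSO day 4 replicate 3, 14 and 13 without NCI-H446 DMSO day 4 replicates 1 and 2, and 13 without SHP-77 DMSO day 7 replicate 2. The DMSO change gave 3 and 4 without SHP-77 DMSO day 2 replicates 1 and 2, 18 without SHP-77 DMSO day 7 replicate 2, 17 without COLO668 DMSO day 7 replicate 1 and 14 without NCI-H446 DMSO day 4 replicate 2. The causes were not tested.

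Replicate numbers were not treated as pairs: of 21 combinations of line and day, 10 had all correlations of same-numbered deviations above 0.1 and 5 had one below -0.1. With the replicate block (84 arrays, 42 pairs, 21 residual degrees of freedom) NCI-H446 had 8 members called; the other counts stayed within 1.5 times. Of single-gene results, day 4 only weakened 33 of 124, the mean of a gene's probe sets 14 of 195, each line's own arrays 12 of 175 and the replicate block 2 of 175.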
